A study of Homo sapiens with 10 samples.

Results

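The genes described here are 10 that encode actins, proteins of the contractile apparatus and widely used targets of the coactivator YAP, taken from the 63187 genes counted in the study. Their rows were found by matching the listed symbols to Ensembl identifiers, and each symbol matched 1 row. They are CCN1, CCN2 and ANKRD1 (YAP targets), ACTA2, ACTBL2 and ACTG2 (actins), TAGLN, CNN1 and TPM1 (actin-binding proteins) and MYL9 (a myosin light chain). The members were chosen by their fold changes between these groups, which were known when the list was drawn up, so their values and calls below are a description and not independent evidence. Of the 10, 9 passed the filter on low counts, and the same number passed in the fit of unheated and heated controls alone.

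RNA was measured in U2OS, a human osteosarcoma cell line, in 3 groups of 2 libraries each. These were heat-shocked cells with knockdown of YTHDC1 (labelled siDC1 or shYTHDC1, HS), heat-shocked cells with a control reagent (siCtrl or shCtrl, HS), and unheated cells with that control reagent (siCtrl or shCtrl, NHS). YTHDC1 is a nuclear reader protein of the RNA modification N6-methyladenosine. Both sh and si names occur in the labels, so the kind of reagent is uncertain, and the sources used here do not state how hot or how long the cells were heated. No unheated knockdown sample was analysed here, so an effect of the knockdown alone cannot be told apart from one that needs heat. Of 9 markers of the bone lineage, 6 were tested, with COL1A1 at 1528 and SPARC at 1157 CPM on average. The osteoblast markers SP7, BGLAP and IBSP had means of 0.021, 0.0119 and 0.0117 CPM.

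Total counts ran from 13252370 to 15500743 per library, and mitochondrially encoded genes took 5.09% to 6.12% of them. Levels are given in CPM, read counts relative to the TMM-scaled library size, in the first and second library of each group. Fold changes are on the log2 scale with the standard error (SE). A gene was called higher or lower where edgeR's quasi-likelihood test gave an adjusted p under 0.05 over the 17290 genes tested. YTHDC1 stood at 121 and 118 CPM in the knockdown, against 268 and 258 CPM in heated controls, so the knockdown left 45.4% of its RNA. Unheated controls had 213 and 225 CPM, and the knockdown stood at 54.6% of their level. In control cells YTHDC1 was called higher with heat (log2 fold change 0.27 ± 0.05 SE). These are bulk samples, in which fewer expressing cells and less RNA per cell cannot be told apart.

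YAP and its relative TAZ (gene WWTR1) are coactivators that the Hippo kinase cascade holds in the cytoplasm. In the nucleus they act through TEAD DNA-binding factors on genes such as CCN1, CCN2 and ANKRD1. Smooth muscle actins, TAGLN and CNN1 are textbook targets of SRF, a factor that binds the CArG box and is assisted by the MRTF coactivators. MRTF proteins are held by monomeric actin, so the state of the actin cytoskeleton feeds into both pathways.

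RefSeq promoter windows (GRCh38.p14) were at hand for 7 of the 10 members, and none for CCN1, TAGLN and MYL9. The 250 bases before the start given for each window were searched on both strands. The TEAD motif GGAATG occurred 3 times in the CCN2 window, with first bases 169, 104 and 95 bases before the start. It occurred 2 times in the ANKRD1 window, 220 and 128 bases before the start. These windows are shown because CCN2 and ANKRD1 are the YAP target members for which a window was at hand, with TEAD motifs in capitals.
CCN2 (chr6:131951373-131951622, minus strand): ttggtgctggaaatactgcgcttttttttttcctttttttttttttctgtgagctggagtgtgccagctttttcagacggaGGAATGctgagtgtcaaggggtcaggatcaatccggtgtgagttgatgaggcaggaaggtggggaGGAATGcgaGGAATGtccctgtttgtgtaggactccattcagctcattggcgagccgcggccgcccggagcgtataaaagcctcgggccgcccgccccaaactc
ANKRD1 (chr10:90921088-90921337, minus strand): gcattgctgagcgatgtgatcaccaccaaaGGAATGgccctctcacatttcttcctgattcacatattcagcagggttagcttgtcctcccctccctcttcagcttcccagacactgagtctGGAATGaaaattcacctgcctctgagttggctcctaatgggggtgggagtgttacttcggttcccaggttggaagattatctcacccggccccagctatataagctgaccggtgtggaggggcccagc
Of all 35116 promoter windows of that length, 11.9% held at least 1 such motif, 0.940% held 2 or more and 0.0826% held 3 or more.

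ACTA2 has 2 annotated starts in the RefSeq table, and the downstream start had 1 TEAD motif 183 bases before it. The CArG search allowed only A or T between CC and GG. The window of the downstream ACTA2 start also holds ccctatatgg and ccttgtttgg, which miss that strict form by 1 base each. They were not counted and are not in capitals, so the search does not show that CArG boxes are absent there. ACTG2 had 2 matches to the CArG box, which begin 110 and 73 bases before its start. These windows are shown because they are the actin windows in which either motif was found, again with the motifs in capitals.
ACTA2, downstream start (chr10:88952774-88953023, minus strand): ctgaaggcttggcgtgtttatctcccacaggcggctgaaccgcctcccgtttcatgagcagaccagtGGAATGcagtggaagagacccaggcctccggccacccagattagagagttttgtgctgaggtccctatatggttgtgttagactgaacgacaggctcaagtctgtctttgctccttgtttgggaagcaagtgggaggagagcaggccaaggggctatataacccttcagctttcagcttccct
ACTG2 (chr2:73892758-73893007, plus strand): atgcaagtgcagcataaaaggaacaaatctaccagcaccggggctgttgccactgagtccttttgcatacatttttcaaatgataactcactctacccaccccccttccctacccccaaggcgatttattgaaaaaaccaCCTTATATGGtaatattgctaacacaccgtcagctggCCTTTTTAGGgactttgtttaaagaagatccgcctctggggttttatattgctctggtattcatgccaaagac
A CArG box occurred in 1.16% of all windows, and 0.0313% held 2 or more. The remaining 4 member windows, of the upstream ACTA2 start and of ACTBL2, CNN1 and TPM1, held no match to either motif in these strict letters. The TPM1 window (63048239 to 63048488, plus strand) lies before a start inside the gene, which begins at 63042747. The bases before the first TPM1 start were not searched. The motif GAANNTTC, the inverted pair of units in a heat shock element, and the AP-1 motif TGANTCA were also searched. GAANNTTC, counted with its units in either orientation to each other, occurred once each in the windows of ANKRD1 and of the upstream ACTA2 start and in 11.6% of all windows. The ANKRD1 match shared 1 base with the TEAD motif beside it. TGANTCA occurred once, in ANKRD1, and in 6.57% of all windows. A match in these letters is no evidence of binding.

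In the knockdown the members split into genes that rose and genes that fell, and the actin-binding members were called in both directions. Of the 9 tested, 6 were called higher (CCN1, CCN2, ANKRD1, ACTA2, ACTBL2 and CNN1) and 3 lower (TAGLN, MYL9 and TPM1) against heated controls. Over all genes 27.4% were called higher and 27.2% lower, or 54.5% in either direction, and 75.9% had groups that did not overlap in CPM. The median log2 fold change of the 9 was 0.77, and that of all genes -0.0042. The rises ran from 1.47-fold in CCN1 to 19.9-fold in ACTBL2, and the falls from 1.69-fold in MYL9 to 2.001-fold in TPM1.

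**Figure D1:**
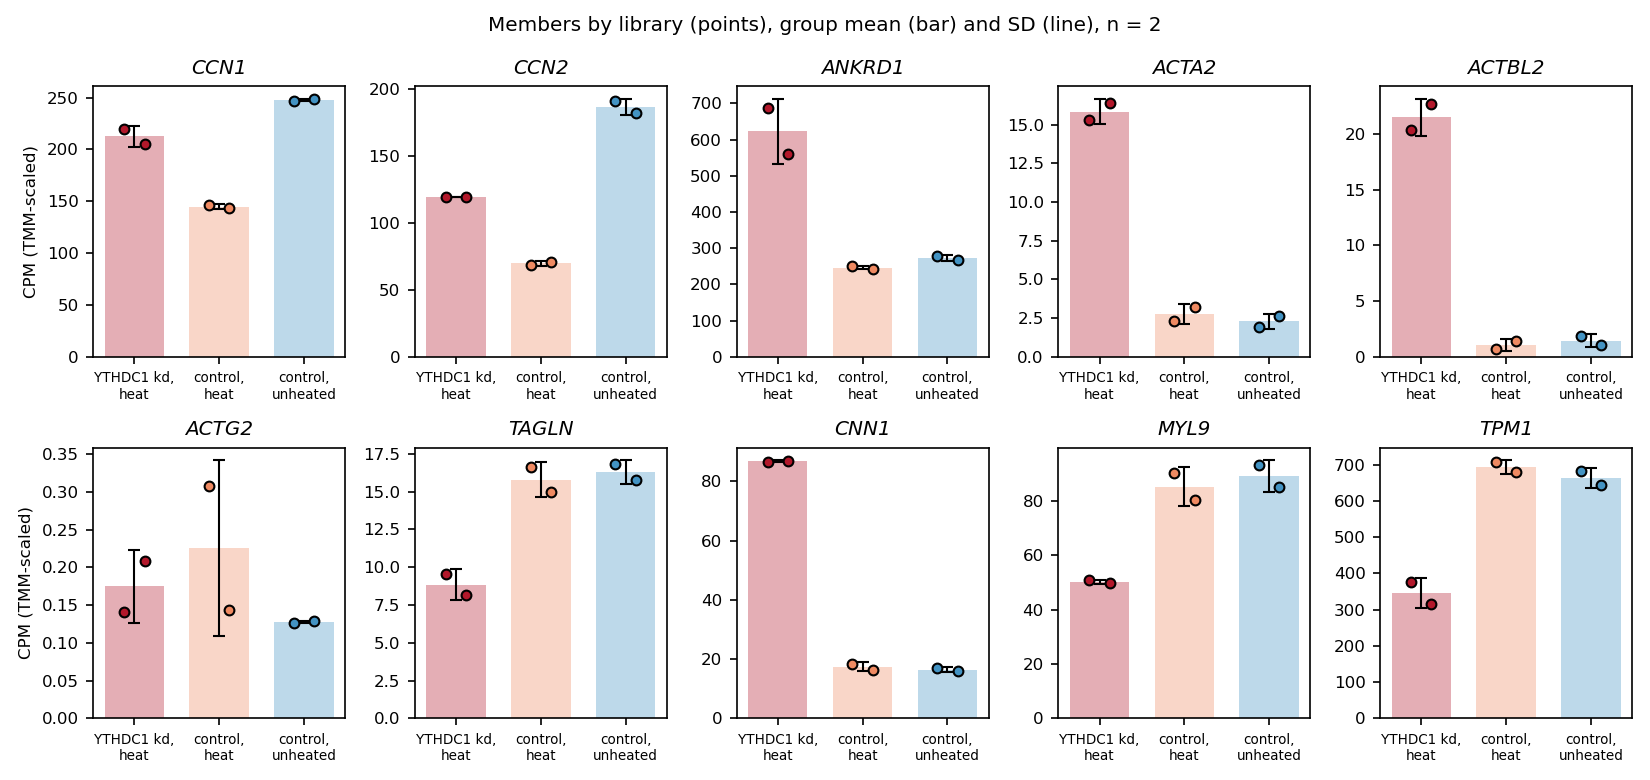
TMM-scaled CPM of the 10 members in each library (points), with the group mean (bar) and SD (line, n = 2), for heat-shocked knockdown, heated control and unheated control cells. ACTA2, ACTBL2 and CNN1 stood high in the knockdown alone, TAGLN, MYL9 and TPM1 stood low there, and CCN1 and CCN2 were lowest in heated controls.

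CCN1 and CCN2 encode secreted proteins of the extracellular matrix that bind integrins. CCN2 (ENSG00000118523, chromosome 6, 131948176 to 131951372) was at 119.1 and 119.5 CPM in the knockdown, 68.7 and 71.2 CPM in heated controls, and 191 and 182 CPM in unheated controls. The 3 groups did not overlap, with the knockdown between the unheated and the heated controls. The log2 fold change was 0.77 ± 0.05 SE for the knockdown over heated controls, -1.42 ± 0.05 for heat in control cells, and -0.65 ± 0.05 for the knockdown over unheated controls.

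CCN1 (ENSG00000142871, chromosome 1, 85580761 to 85583950) was at 220 and 206 CPM in the knockdown, 147 and 143 CPM in heated controls, and 247 and 248 CPM in unheated controls. Again no library of one group reached the range of another. The knockdown was 1.47-fold above heated controls (log2 fold change 0.55 ± 0.05 SE) and below unheated controls by a smaller amount (-0.22 ± 0.05). Heat lowered CCN1 by 0.77 ± 0.05 in control cells (1.71-fold) and CCN2 2.67-fold. CCN1 and CCN2 were the 2 members called in that comparison, in which 43.9% of all genes were called, 20.6% higher and 23.3% lower.

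ANKRD1, an ankyrin repeat protein of muscle that also acts in the nucleus, took a different course from the CCN pair. It (ENSG00000148677, chromosome 10, 90912096 to 90921087) was at 686 and 559 CPM in the knockdown, 249.6 and 243 CPM in heated controls, and 278 and 267 CPM in unheated controls. Both knockdown libraries lay far above all 4 controls, and they differed from each other more than the controls did (SD 89.9 CPM, against 4.77 and 7.34). ANKRD1 was 2.53-fold above heated controls (log2 fold change 1.34 ± 0.09 SE) and 2.28-fold above unheated controls.

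Heat alone left ANKRD1 at a log2 fold change of -0.15 ± 0.09 in control cells. The 2 heated libraries lay below the 2 unheated ones, a separation that 72.2% of all genes showed in this comparison. The change did not pass the threshold (edgeR adjusted p = 0.254), but it did with no filter (0.0102), in the fit of only the 2 groups (0.00799), with the replicate block (0.0344), and without knockdown replicate 1 (7.92e-04) or replicate 2 (6.32e-04). Over all alternatives its adjusted p ran up to 0.548.

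**Figure D2:**
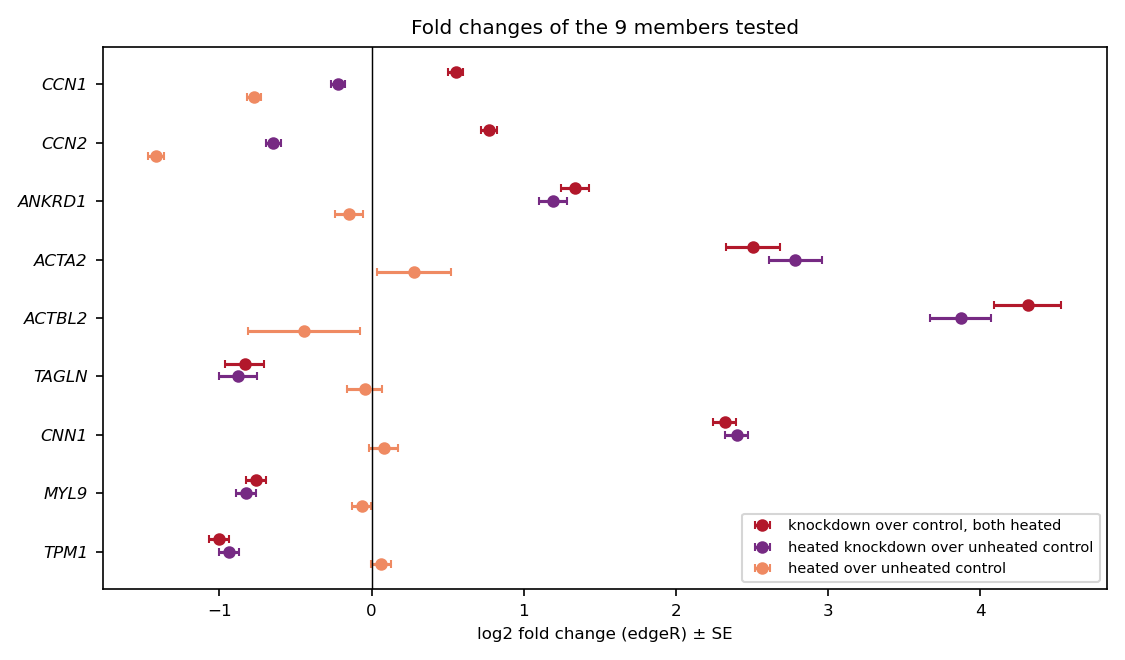
Log2 fold changes (points) with SE (lines) of the 9 tested members in 3 comparisons: knockdown over control cells, both heated; heated knockdown over unheated control; and heated over unheated control. CCN1 and CCN2 have opposite signs in the first and last of these, whereas ACTA2, ACTBL2, TAGLN, CNN1, MYL9 and TPM1 were called in the knockdown and not with heat.

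Among the actins, ACTBL2 had the largest rise of the members. ACTBL2, a beta-actin-like gene without introns (ENSG00000169067, chromosome 5, 57480018 to 57482811), had 289 and 326 counts in the knockdown, 9 and 20 in heated controls, and 30 and 16 in unheated controls. In CPM these were 20.3 and 22.7 in the knockdown, 0.692 and 1.43 in heated controls, and 1.89 and 1.03 in unheated controls. The knockdown stood apart from all controls, while heated and unheated controls overlapped. The log2 fold change was 4.31 ± 0.22 SE for the knockdown over heated controls and 3.87 ± 0.20 over unheated controls. The few control counts set the size of this fold, which was 4.93 without heated control replicate 2 and 3.90 without replicate 1.

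ACTA2, the alpha actin of smooth muscle and a marker of myofibroblasts (ENSG00000107796, chromosome 10, 88935074 to 88991337), also stood high in the knockdown, at a lower fold. It was at 15.3 and 16.4 CPM in the knockdown, 2.31 and 3.23 CPM in heated controls, and 1.96 and 2.63 CPM in unheated controls. The knockdown was 5.68-fold above heated controls (log2 fold change 2.51 ± 0.18 SE) and 6.89-fold above unheated controls, and the controls overlapped. ACTA2 overlaps FAS, a death receptor gene with 36.2 CPM on average, which rose by 0.65 in the knockdown, and the antisense transcript ACTA2-AS1, which was at -2.04 with 0.642 CPM on average. Whether reads were counted by strand is not stated, so reads of these neighbours cannot be told apart from those of ACTA2.

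ACTG2, the gamma actin of enteric smooth muscle (ENSG00000163017, chromosome 2, 73893008 to 73919865), had 2 and 3 counts in the knockdown, 4 and 2 in heated controls, and 2 and 2 in unheated controls. It did not pass the filter, and no difference was detectable at this depth. The muscle actins are near-identical proteins, and how multi-mapped reads were handled is not stated, so counts could be split among these genes.

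The actins that make up most of the cytoskeleton went the other way. ACTB, beta actin, was at 5752 and 5322 CPM in the knockdown, 6460 and 6679 CPM in heated controls, and 8351 and 7847 CPM in unheated controls. ACTG1, gamma actin, fell as well, to 1463 and 1369 CPM in the knockdown, against 1926 and 1996 CPM in heated controls and 2583 and 2437 CPM in unheated controls. On the log2 scale ACTB fell by 0.25 and ACTG1 by 0.47 in the knockdown (edgeR adjusted p = 1.82e-04 and 1.04e-08), and they fell by 0.30 and 0.36 with heat. Per length, ACTB averaged 4490 TPM in the knockdown, and ACTBL2 and ACTA2 averaged 27.5 and 10.05 TPM there. The striated muscle actins, named here after their values were seen, were low in all 6 libraries: ACTA1 averaged 1.05 CPM and ACTC1, which was not tested, 0.23 CPM.

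CNN1, calponin 1, binds actin and slows the myosin motor in smooth muscle. CNN1 (ENSG00000130176, chromosome 19, 11538851 to 11550323) was at 86.6 and 87.0 CPM in the knockdown, 18.5 and 16.3 CPM in heated controls, and 17.1 and 15.8 CPM in unheated controls. The 2 knockdown libraries nearly coincided and the 4 controls overlapped. The knockdown was 4.99-fold above heated controls (log2 fold change 2.32 ± 0.08 SE) and 5.27-fold above unheated controls (2.40 ± 0.08). CNN1 was the most abundant of the 3 actin and actin-binding members that rose, the others being ACTA2 and ACTBL2, at 109 TPM in the knockdown.

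TAGLN, transgelin, cross-links actin filaments and is usually listed beside CNN1 as an early smooth muscle gene, but here it moved in the opposite direction. TAGLN (ENSG00000149591, chromosome 11, 117199294 to 117207465) was at 9.57 and 8.14 CPM in the knockdown, 16.6 and 15.0 CPM in heated controls, and 16.8 and 15.7 CPM in unheated controls. The knockdown lay below all 4 controls, which overlapped. The log2 fold change was -0.83 ± 0.13 SE against heated controls and -0.88 ± 0.12 against unheated controls. TAGLN overlaps PCSK7, a protease gene with 38.4 CPM on average, which was at 0.20 in the knockdown.

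MYL9 encodes the regulatory light chain of smooth muscle and nonmuscle myosin. MYL9 (ENSG00000101335, chromosome 20, 36541519 to 36551447) was at 50.9 and 49.8 CPM in the knockdown, 90.4 and 80.2 CPM in heated controls, and 93.2 and 85.1 CPM in unheated controls. TPM1, a tropomyosin that lies along the actin filament (ENSG00000140416, chromosome 15, 63042747 to 63071915), was at 376 and 317 CPM in the knockdown, 707 and 679 CPM in heated controls, and 683 and 645 CPM in unheated controls. For both genes the knockdown lay below all controls and the controls overlapped. MYL9 fell by 0.76 ± 0.07 on the log2 scale against heated controls and TPM1 by 1.0 ± 0.06, which left TPM1 at 49.98% of the control level.

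With heat alone none of the 6 actin and contractile members tested passed the edgeR threshold (lowest unadjusted p = 0.240, for ACTBL2). The low counts of ACTA2 and ACTBL2 leave their heat changes imprecise. The log2 fold changes in control cells were 0.28 ± 0.24 for ACTA2, -0.44 ± 0.37 for ACTBL2, -0.05 ± 0.11 for TAGLN, 0.08 ± 0.10 for CNN1, -0.07 ± 0.06 for MYL9 and 0.06 ± 0.06 for TPM1. In the fit of only the 2 groups 4 members were called rather than 2, with ANKRD1 lower and TPM1 higher (0.09, adjusted p = 0.0389). Against unheated controls all 9 tested members were called in the heated knockdown, 4 higher and 5 lower, where 62.2% of all genes were called, 31.1% in each direction. All 10 members had groups that did not overlap in that comparison, as did 80.1% of the genes tested; for ACTG2 this separation rests on 2 and 3 counts in the knockdown against 2 and 2 in unheated controls, at slightly different library sizes. These comparisons share libraries, so their values for a gene are not independent.

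**Figure D3:**
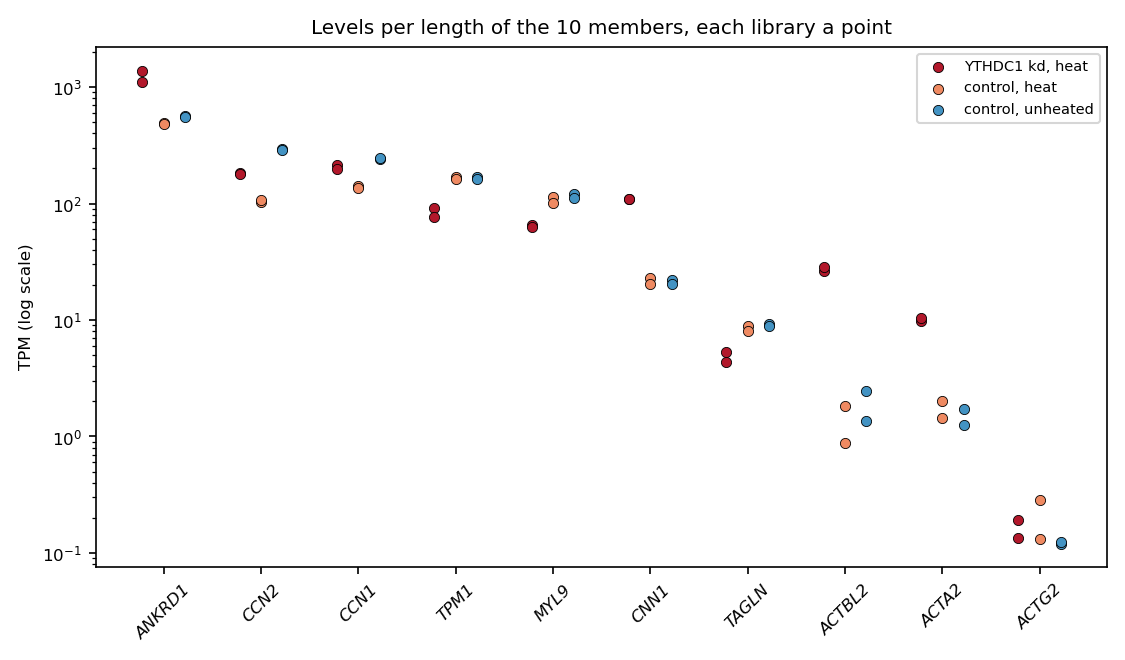
TPM on a log scale (length-normalised level) of the 10 members in each library, for heat-shocked knockdown, heated control and unheated control cells, in the order of their unheated level. In the knockdown CNN1 stands above MYL9 and TPM1, which it lies below in both control groups. For TPM1 this order rests on its deposited length of 14700 bases, and in CPM it stays above CNN1.

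Compared per length, the members differed widely in level. In unheated controls ANKRD1 was the most abundant at 557 TPM, followed by CCN2 at 292, CCN1 at 245, TPM1 at 165, MYL9 at 116, CNN1 at 21.2 and TAGLN at 9.09 TPM. ACTBL2 and ACTA2 came next at 1.91 and 1.49 TPM, with libraries that overlapped, and ACTG2 was last at 0.122 TPM. The other neighbours in this order did not overlap. In heated controls CCN1 at 138 TPM stood above CCN2 at 106 TPM. In the knockdown the order was ANKRD1 at 1244 TPM, CCN1 at 205, CCN2 at 182, CNN1 at 109, TPM1 at 84.2, MYL9 at 64.0, ACTBL2 at 27.5, ACTA2 at 10.05 and TAGLN at 4.83 TPM. In TPM, CNN1 thus stood above TPM1 and MYL9 in the knockdown and below them in both control groups, and TAGLN stood below ACTBL2 and ACTA2 only in the knockdown. The lengths are those deposited, 14700 bases for TPM1 and 6550 for TAGLN, and appear to cover the exons of several transcripts, so levels of such genes are understated. In CPM the knockdown means were 346 for TPM1, 86.8 for CNN1 and 50.3 for MYL9. The place of CNN1 above TPM1 therefore rests on the lengths, and its place above MYL9 does not.

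Close relatives of the members, named here after their values were seen, moved in both directions among tropomyosins, calponins and actins, whereas the tested transgelins and myosin light chains had the sign of the member. Among tropomyosins TPM1 and TPM2 fell in the knockdown (-1.0 and -0.27), TPM3 was at -0.09 and TPM4 rose by 0.91. Among calponins CNN1 rose by 2.32, CNN2 fell by 0.22 and CNN3 was at 0.03. TAGLN2 fell by 0.23. The myosin light chains all had negative values, with MYL9 at -0.76, MYL12A at -0.66, MYL6B at -0.23 and MYL12B at -0.17, all called lower, and MYL6 at -0.12 (adjusted p = 0.0529).

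**Figure D4:**
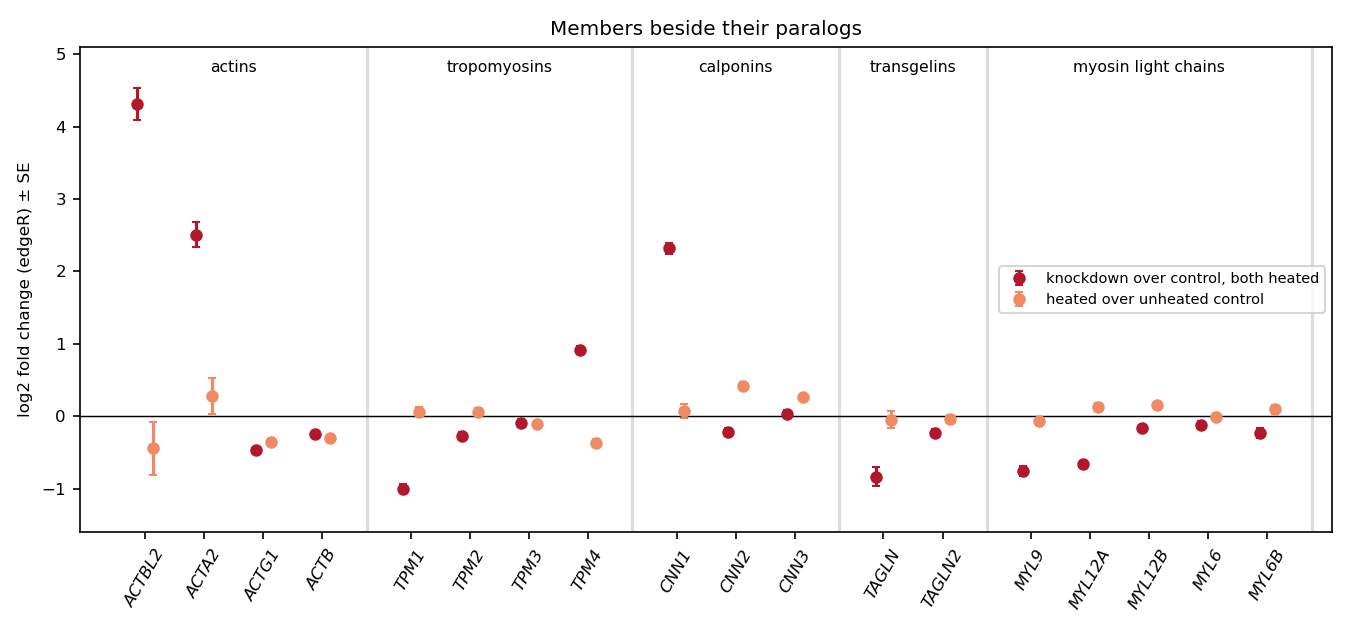
Log2 fold changes (points) with SE (lines) of members and their tested paralogs in 5 families, for knockdown over control cells, both heated, and for heated over unheated control cells. Actins, tropomyosins and calponins each hold genes on both sides of 0 in the knockdown, whereas the transgelins and myosin light chains all lie below 0 there.

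Other actin-binding and contractile genes fell more often than they rose in the knockdown. Of 28 listed, 24 were tested, 13 fell and 5 rose (75.0% called), with a median of -0.22. The list includes TPM4, already given among the tropomyosins. Over all genes tested, 54.5% were called in the knockdown, 27.4% higher and 27.2% lower. With heat 43.9% were called, 20.6% higher and 23.3% lower. These shares also stand beside the counts of the lists that follow. FHL1, a LIM domain protein of muscle, fell by 1.09 and MYLK, the kinase that phosphorylates myosin light chains, by 0.99 (adjusted p = 9.99e-14 and 6.15e-14). SMTN, smoothelin, rose by 0.93 and TPM4 by 0.91 (adjusted p = 8.47e-13 and 1.01e-12). With heat 11 of the 24 fell and 8 rose (79.2% called), with a median of -0.022 against -0.027 over all genes. PDLIM7 and TGFB1I1, LIM proteins at actin fibres, fell by 0.69 each with heat, and FHL1 and PDLIM5 rose by 0.48 and 0.45.

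Defining smooth muscle markers moved in both directions, and their part in the members' changes was not tested. Of the 7, 5 were tested: SMTN rose in the knockdown, DES and MYOCD fell, and SYNM and SYNPO2 were not called (SMTN also counts among the actin-binding genes already given and MYOCD among the SRF genes that follow). Their summed level was 143 to 153 CPM in the knockdown, 82.2 to 83.7 CPM in heated controls and 124 to 134 CPM in unheated controls. Without SMTN, the most abundant, it was 4.92 to 6.33 CPM in the knockdown, 7.08 to 8.89 CPM in heated controls and 7.65 to 10.3 CPM in unheated controls. MYH11, the smooth muscle myosin heavy chain, was at 0.492 and 0.139 CPM in the knockdown and at most 0.308 CPM in any control. Of 9 striated muscle markers 3 were tested, with a summed level of 2.88 to 3.90 CPM in the knockdown, 3.999 to 4.95 CPM in heated controls and 2.08 to 2.38 CPM in unheated controls, and MYOD1 and MYOG were at 0 in all 6 libraries. The 7 blood markers summed to 0.704 to 2.64 CPM in the knockdown, 1.85 to 6.52 CPM in heated controls and 0.126 to 0.385 CPM in unheated controls, with CD3E and HBB at 0 throughout. Leaving out HBA2, the most abundant, the other 6 summed to 0.352 to 1.04 CPM in the knockdown, 0.215 to 0.769 CPM in heated controls and 0.126 to 0.385 CPM in unheated controls. Bone lineage markers summed to 2672 to 2971 CPM in the knockdown, 2695 to 2783 CPM in heated controls and 2559 to 2591 CPM in unheated controls. Without COL1A1, the most abundant, the other 8 summed to 878 to 1039 CPM in the knockdown, 1330 to 1358 CPM in heated controls and 1237 to 1258 CPM in unheated controls. That sum, of which SPARC was the largest part, was lower in the knockdown, but single markers went both ways. Of the 6 bone markers tested, COL1A1 included, 3 were called higher in the knockdown, 2 lower and 1 was not called. Their log2 fold changes ran from -2.01 to 2.56, and their part in the members' changes was not tested.

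SRF fell in the knockdown while the actin-sensing coactivators MRTFA and MRTFB rose. SRF was at 48.5 and 49.5 CPM in the knockdown, 68.3 and 76.2 CPM in heated controls, and 67.8 and 66.0 CPM in unheated controls. The knockdown lay below all controls (log2 fold change -0.56 ± 0.06 SE, adjusted p = 9.27e-08). MRTFA and MRTFB rose by 0.52 and 0.22 and the ternary complex factor ELK4 was also called higher, while the muscle coactivator MYOCD fell. ELK3, another ternary complex factor, which can repress SRF targets, fell to 26.45 and 23.45 CPM in the knockdown, against 95.1 and 87.9 CPM in heated controls (log2 fold change -1.87 ± 0.07, adjusted p = 3.65e-16). Of the 7 genes 3 rose and 3 fell (85.7% called, median 0.068). With heat MRTFB and ELK3 were the 2 that fell, by 0.27 and 0.17 (28.6% called, median -0.023). That count was 1 with DESeq2 and without unheated replicate 2 or heated control replicate 2.

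Other YAP and TAZ targets more often fell with heat and more often rose in the knockdown, as counts within each comparison. The list held YAP and TAZ targets other than the members, and 1 of its genes, FJX1, was known to be among the heat-lowered genes of these data. In the knockdown 9 of 17 tested genes rose and 3 fell (70.6% called, median 0.25), and with heat 9 fell and 2 rose (64.7% called, median -0.15). IGFBP3 and NT5E were too low to test. FJX1, a secreted protein related to Four-jointed, was at 16.8 and 21.3 CPM in the knockdown, 6.54 and 8.17 CPM in heated controls, and 41.8 and 39.6 CPM in unheated controls. F3, tissue factor, was at 34.05 and 27.1 CPM in the knockdown, 15.4 and 14.3 CPM in heated controls, and 43.8 and 46.5 CPM in unheated controls. In both genes the knockdown stood between heat-shocked and unheated controls without overlap, the order also seen in CCN1 and CCN2.

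The log2 fold changes were 1.37 ± 0.14 SE for FJX1 and 1.04 ± 0.11 for F3 in the knockdown (adjusted p = 7.20e-09 and 1.24e-08), and -2.46 and -1.605 with heat. DOCK5 and CRIM1 fell in the knockdown, by 0.82 and 0.60. FOXF2 and PTPN14 rose with heat, by 0.58 and 0.13. The heat and knockdown comparisons share the heated control libraries, so a low value there moves both in opposite directions.

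Genes of the Hippo cascade itself were called in both directions. The list shares AMOTL2, LATS2 and PTPN14 with that of YAP targets. Of 26 tested, 12 fell and 6 rose in the knockdown (69.2% called, median -0.12), and 9 rose and 9 fell with heat (69.2% called, median -0.018). YAP1 was at 118.5 and 111.7 CPM in the knockdown, 128 and 129 CPM in heated controls, and 133 and 132 CPM in unheated controls, a fall of 0.16 in the knockdown (adjusted p = 0.0106). WWTR1 fell by 0.35 in the knockdown (adjusted p = 8.64e-05) and by 0.30 with heat. VGLL3, a TEAD cofactor, and TEAD4 had the largest rises in the knockdown (1.38 and 0.42). MOB1A, a LATS kinase activator, and VGLL4, a TEAD corepressor, fell by 1.03 and 0.90. With heat LATS1 and AMOTL1 rose by 0.63 and 0.60, and TEAD3 and AMOT fell by 0.40 and 0.36. Without unheated replicate 2 the count with heat was 11, in place of 18.

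**Figure D5:**
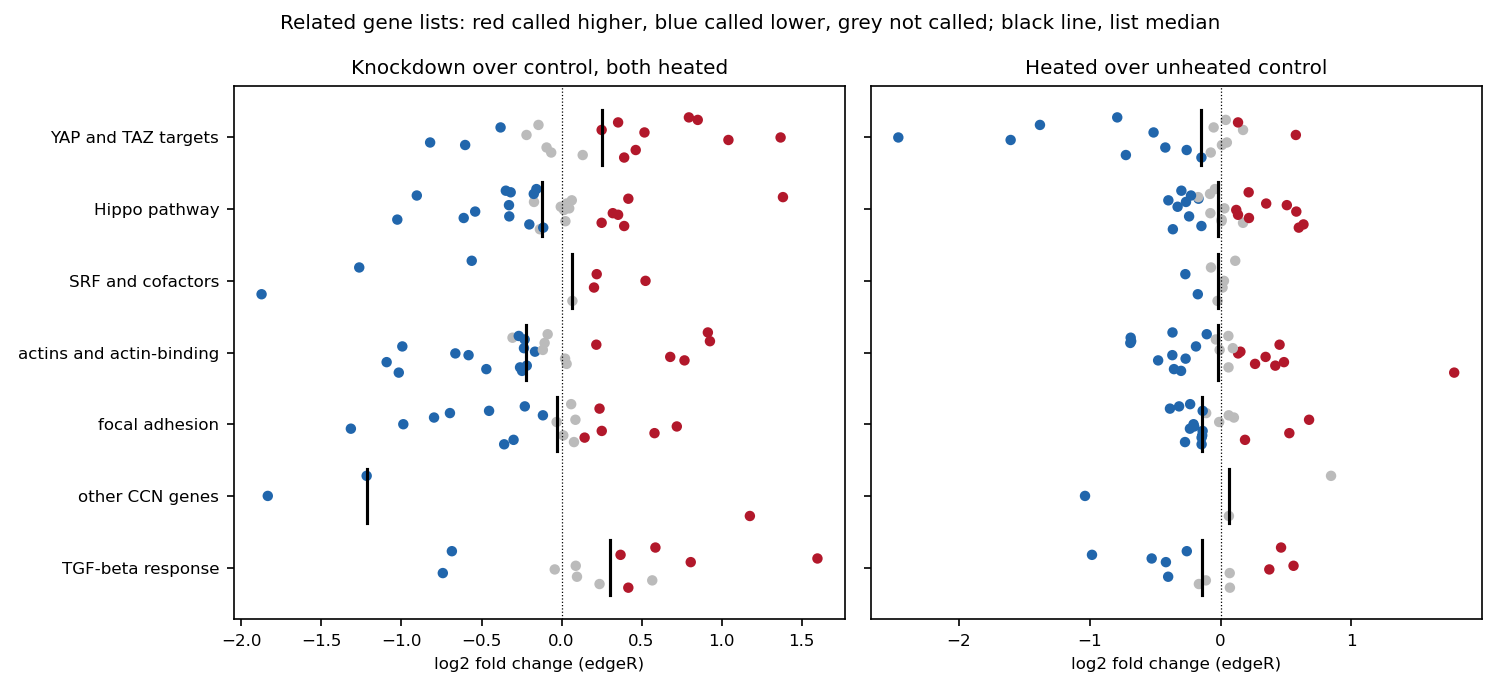
Log2 fold change of every tested gene (points) in 7 related lists, at left for knockdown over control cells, both heated, and at right for heated over unheated control cells, coloured by call, with the list median as a line. YAP and TAZ targets have a median of 0.25 at left and -0.15 at right, and each of the 7 lists holds calls in both directions in the knockdown.

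Focal adhesion genes fell in 9 and rose in 5 of 19 in the knockdown (73.7% called, median -0.031), and fell in 12 and rose in 3 with heat (78.9% called, median -0.14). The integrin subunits ITGA2 and ITGAV fell by 1.32 and 0.99 in the knockdown, whereas ITGA5, the fibronectin receptor subunit, rose by 0.72 and the filamin FLNC by 0.58. With heat LPP and FLNC rose by 0.68 and 0.53, and TNS1 and VCL fell by 0.39 and 0.32.

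The other CCN genes were called in both directions in the knockdown. CCN3 was at 46.9 and 58.2 CPM in the knockdown, 22.5 and 24.01 CPM in heated controls, and 22.1 and 22.4 CPM in unheated controls, a rise of 1.18 in the knockdown. CCN4 fell in the knockdown by 1.84 and with heat by 1.04. In the list 3 of 4 were tested, 1 rose and 2 fell in the knockdown (100% called, median -1.22), and 1 fell with heat (33.3% called, median 0.064). With DESeq2, and with no filter, 1 rose and 1 fell in the knockdown. TGF-beta response genes had 5 of 12 higher and 2 lower in the knockdown (58.3% called, median 0.30), and 3 higher and 5 lower with heat (66.7% called, median -0.14). TGFBI and TGFB1 rose by 1.60 and 0.81 in the knockdown, and TGFBR2 fell by 0.69. With heat SMAD7 and THBS1 rose by 0.56 and 0.46, and TGFBR1 and TGFBI fell by 0.98 and 0.53.

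Genes whose pattern came closest to that of CCN2, the member with the largest heat change, were SLC2A1, SOX2 and WDR6. Likeness was the root mean square difference of centred log2(CPM + 1) over the 6 libraries, among 11574 genes of at least 5 CPM, and it was 0.0469, 0.0614 and 0.0689 for these genes. The added 1 narrows differences in genes of low level. SLC2A1 had log2 fold changes of -1.37 with heat and 0.70 in the knockdown, and WDR6 of -1.38 and 0.89. SOX2, at 5.07 CPM on average, was at -1.84 and 1.08, against -1.42 and 0.77 for CCN2. SLC2A1, the glucose transporter GLUT1, was at 141 and 130 CPM in the knockdown, 82.8 and 83.8 CPM in heated controls, and 218 and 213 CPM in unheated controls. The genes closest to ACTBL2, the member with the largest knockdown change, were AREG, the growth factor amphiregulin (0.258), the locus ENSG00000286393 (0.324) and IGFL2 (0.329). AREG was at 44.95 and 45.9 CPM in the knockdown, 3.999 and 4.01 CPM in heated controls, and 3.72 and 2.89 CPM in unheated controls.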

How the data were processed

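RNA-seq libraries of U2OS cells, 2 in each of 3 groups, were analysed from the deposited table of raw read counts, 1 row for each gene. The submitters' processing notes name, with no role or order, HISAT2 2.2.1 and SAMtools 1.17; Trim Galore 0.6.7 with FastQC 0.11.8; featureCounts 2.0.2; MACS2; and DESeq2 1.36.0 under R 4.4.0, with build GRCh38. They do not state the annotation, the strand setting or how multi-mapped reads were counted. The 4 methylated RNA immunoprecipitation samples were not analysed here.

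The members and the gene lists were chosen with earlier results of these data known. Symbols were paired with 62666 of 63187 identifiers, and the 521 without one held at most 0.0698% of counts. Positions and promoter sequences are those of RefSeq, GRCh38.p14. edgeR 4.0.16 in R 4.3.3 (quasi-likelihood F test, robust, TMM scaling, filterByExpr with a minimum count of 10) was fitted to all 6 libraries, with 3 residual degrees of freedom, and p-values were adjusted by Benjamini-Hochberg over the 17290 genes tested. SE is the absolute log2 fold change divided by the square root of F. TPM used the deposited gene lengths. Whether replicates were separate cultures is not stated. The p-values therefore reflect only how far these libraries differ, a spread that could be technical. Libraries of a group were not copies of each other (chi-square per gene of 3.55 in the knockdown, 2.69 in heat-shocked and 1.54 in unheated controls). Alternatives were DESeq2 1.42.0, other scalings, no filter, a fit of 2 groups, no robust estimation, a replicate block and leaving out each library.

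Named genes were the members, YTHDC1, SRF, YAP1, WWTR1, ACTB and ACTG1, the 2 largest called rises and falls of each related list among genes of at least 5 CPM, and the 3 genes closest in pattern to 2 members. Some genes and 1 gene list that the rule covers are not reported here.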

Additional observations from a re-analysis of the deposited data

How the results depend on the processing

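In the knockdown comparison, and against unheated controls, all 9 tested members kept their direction and their call under every alternative run. With heat, CCN1 and CCN2 did so too. Of the members not called with heat, ANKRD1, ACTA2 and TPM1 kept their sign on leaving out single libraries (-0.18 to -0.12, 0.010 to 0.50 and 0.013 to 0.10). The others changed it, and TPM1 did so under another alternative. TPM1 was at -0.0082 with library size alone, and on leaving out single libraries ACTBL2 ran from -1.07 to 0.061, TAGLN from -0.12 to 0.029, CNN1 from -0.013 to 0.17 and MYL9 from -0.16 to 0.020. The cause was not tested. In the fit of only the 2 groups 4 members were called with heat, in place of 2.

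With the replicate block 3 members were called with heat, ANKRD1 added (adjusted p = 0.0344), and the counts over all genes were 7494 with heat, 9372 in the knockdown and 10684 against unheated controls, in place of 7592, 9425 and 10756. Deviations of same-numbered libraries correlated at 0.058, -0.061 and -0.028 between groups, so the numbers gave no sign of pairing. With library size alone 36.5% of heat calls were higher, in place of 46.9%, and the median heat fold change moved by -0.07. With 1 library left out, the lone library of its group is assumed to vary like the others. Depth limits ACTG2, at 2 to 4 counts, and the fold of ACTBL2, which rests on 9 and 20 control counts.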

Other observations

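Of the 18 nearest tested genes on either side of the 9 tested members, by RefSeq position, 5 were called in the member's direction in the knockdown, 8 in the opposite direction and 5 were not called. Among all genes tested, 27.4% were called higher in the knockdown and 27.2% lower, so neighbours called in the member's direction were about as frequent as calls in 1 direction over all genes. Neighbours called in the opposite direction, 8 of 18, were more frequent than that, a difference that was not tested. Those in the member's direction were ENPP1 beside CCN2 (0.78, against 0.77 for CCN2), PCGF5 beside ANKRD1 (0.33, against 1.34), LIPA beside ACTA2 (0.96, against 2.51), PLK2 beside ACTBL2 (0.92, against 4.31) and ECSIT beside CNN1 (0.79, against 2.32). On the other side of these members, RPP30 fell by 0.26, STAMBPL1 by 0.59 and GPBP1 by 0.77, and ELOF1 was at 0.00086. Among the 4 neighbours of CCN1 and CCN2, LINC01013 beside CCN2, with 2 to 13 counts per library, came closest to its member, at -1.52 with heat (edgeR adjusted p = 0.0515) and 0.89 in the knockdown (adjusted p = 0.291), against -1.42 and 0.77 for CCN2. ENPP1 was at -0.08 with heat. No test of the difference between a neighbour and its member was run.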
